A study of Mus musculus with 15 samples.

Results

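NIH3T3 cells made to express mouse Runx2 constitutively were compared with NIH3T3 cells carrying the empty vector and not given 4-hydroxytamoxifen (4-OHT, the drug that activates the oestrogen receptor fusion used elsewhere in the study). The comparison rests on 4 of the 15 arrays of the series, chosen by their titles: 2 arrays of the murine Runx2 line and 2 of the vector control without the drug. NIH3T3 is an established mouse embryonic fibroblast line. Every group in the study, controls included, had been transduced with the retroviral vector pBabe-puro, which carries puromycin resistance, and was harvested after 7 days of growth to confluence in DMEM and 24 h in 0.2% ethanol, with or without 4-OHT at a labelled 0.1 mM. The labels do not say which of these the Runx2 line received. They number the arrays as biological replicates 1 and 2 but do not say whether a line was a clone or a pool, or whether replicates were separate cultures. A p-value here therefore reflects only the spread between replicate arrays, which can be purely technical. In the main fit that spread was estimated over all 8 groups of the series together, not from the 4 compared arrays alone. The other groups used below are the constitutive mouse Runx1 and mouse Runx3 lines (2 arrays each), vector cells given 4-OHT (2 arrays), cells with an inducible human RUNX1-ER construct, induced with the drug or uninduced (2 arrays each), and a constitutive human RUNX1 line (1 array). The title of the series gives the question as the control of cell adhesion and survival by Runx factors.

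Runx2 is 1 of the 3 mammalian Runx transcription factors, which bind DNA through a shared Runt domain together with the partner subunit Cbfb and can raise or lower transcription depending on the site and the cofactors present. Runx2 is best known as the factor required for osteoblast differentiation and bone formation. In fibroblasts, Runx factors have been studied for their effects on adhesion, growth arrest and survival.

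Levels are given throughout in log2 RMA units (a difference of 1 is a 2-fold change), replicate 1 first, and a gene is represented by its brightest probe set. RMA tends to shrink differences between dim signals, so a fold change from a low level can be an underestimate, and 2 arrays a group limit the precision. The 4 arrays had medians from 3.72 to 3.75. The vector arrays correlated at r = 0.9967 over all probe sets and the Runx2 arrays at 0.9943, and Runx2 replicate 2 correlated as well with an induced RUNX1-ER array (0.9945). A list of 10 fibroblast markers had medians from 11.25 to 11.30 on the 4 arrays, with every member above the array median. Of these markers, Pdgfrb passed the test as higher and Pdgfra as lower, as described below. Lists for 7 other cell types had medians from 3.25 to 4.09, and 2 of their 51 measured members passed the test, beside 2.57% of all genes. They were Phex, described below, and Krt8 at 3.98 and 4.03 in vector and 4.94 and 5.00 in Runx2 arrays. Krt8 lost its call when any single array was left out (adjusted p = 0.0856 and 0.0745 without Runx2 replicates 1 and 2, 0.146 and 0.105 without vector replicates 1 and 2).

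The introduced gene could not be checked by name, because no probe set carries the symbol Runx2 in the annotation used here. Among 10092 probe sets without a single symbol, 44 passed the same test, 25 of them higher and 19 lower. The largest difference on the whole array belonged to one of these, 1426034_a_at, which measured 3.88 and 3.88 in vector and 8.43 and 8.95 in the Runx2 arrays. A second, 1425389_a_at, measured 3.19 and 3.60 against 7.71 and 7.52. Both were dim in every other group of the study, with group means from 3.87 to 4.19 for the first and 3.26 to 3.40 for the second, the uninduced and induced RUNX1-ER cells included. The genes read by these probe sets are not named in that annotation. The other Runx genes did not pass the test: Runx1 measured 4.56 and 4.75 in vector and 4.49 and 4.75 in the Runx2 line, Runx3 4.54 and 4.35 and 4.41 and 4.10, and Cbfb 9.40 and 9.52 and 9.52 and 9.48. None of the 19 measured members of a list of Runx genes and partners passed.

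The Runx2 line differed from vector at 468 of 18193 genes (2.57%; limma, Benjamini-Hochberg adjusted p under 0.05), of which 168 were higher (0.923%) and 300 lower (1.65%). The falls outnumbered the rises, but the largest changes were rises. At least 2-fold changes numbered 35 upward and 50 downward, and at least 4-fold changes 8 upward and 2 downward. Every called gene had Runx2 arrays that did not overlap the vector arrays, as did 41.5% of all genes, and the smallest called difference was 0.33. Genes that fell started from a median vector level of 7.76 and genes that rose from 6.27, against 4.50 for all genes. Of the 35 genes that rose 2-fold or more, 15 came from a vector level under 5, while 2 of the 50 that fell did. The count rests on single arrays: it was 207 without vector replicate 1, 224 without vector replicate 2, 270 without Runx2 replicate 1 and 482 without Runx2 replicate 2. Against vector cells that had received 4-OHT it was 573, with 278 higher and 295 lower. For the drug itself limma called 0 genes in vector cells (1225 at an unadjusted p under 0.05). Of the genes named by rule, 12 lost their call against vector cells given 4-OHT: Krt8, Col6a2, Col4a5, Loxl3, Dcn, Aspn, Adamts4, Dusp6, Rbl2, Top2a, Bcl2 and Plpp3 (adjusted p from 0.0532 to 0.583).

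**Figure D1:**
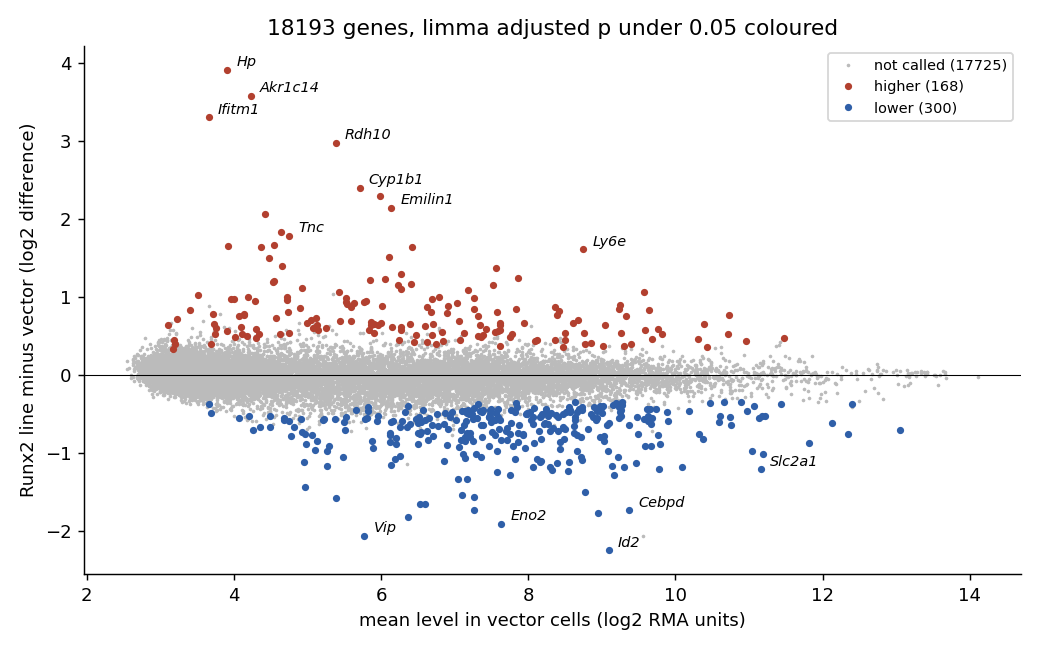
Difference between the Runx2 line and vector (vertical axis, log2) against the mean vector level (horizontal axis, log2 RMA units) for 18193 genes, with 168 called higher in red and 300 called lower in blue. The highest points are rises from dim vector levels (Hp, Akr1c14, Ifitm1), and the falls spread over brighter genes.

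The largest rise was that of Hp, haptoglobin, a plasma protein that binds free haemoglobin and is usually made by the liver. Hp measured 4.02 and 3.80 in vector and 7.91 and 7.72 in the Runx2 arrays, a rise of 3.91 ± 0.22 (SE; adjusted p = 6.73e-07, limma) or 15-fold. Akr1c14, an aldo-keto reductase that acts on steroids, went from 4.26 and 4.20 to 7.56 and 8.05, a rise of 3.57 ± 0.22 (adjusted p = 1.42e-06). Ifitm1, an interferon-induced membrane protein, went from 3.59 and 3.72 to 6.77 and 7.14 (3.30 ± 0.20, adjusted p = 1.31e-06). All 3 lay near the array median in vector cells and well above it in both Runx2 arrays. Rdh10, the dehydrogenase that turns retinol to retinal as the first step to retinoic acid, was moderate in vector (5.56 and 5.20) and bright in the Runx2 arrays (8.38 and 8.33), a rise of 2.98 ± 0.11 (adjusted p = 2.2e-08). Its second probe set also rose, by 2.71. Cyp1b1, a cytochrome P450 that oxidises oestrogens and polycyclic hydrocarbons, rose by 2.40 ± 0.091, from 5.65 and 5.76 to 8.09 and 8.13 (adjusted p = 2.2e-08). Ugcg, which makes glucosylceramide and so opens glycosphingolipid synthesis, rose by 2.29 ± 0.16, from 6.14 and 5.83 to 8.26 and 8.28 (adjusted p = 5.26e-06). The replicates of Ugcg were 0.32 apart in vector and 0.016 apart in the Runx2 line, far below its difference.

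Matrix proteins came next. Emilin1, an elastic fibre glycoprotein, measured 6.09 and 6.19 in vector and 8.21 and 8.34 in the Runx2 line, and Ccn5, a matricellular protein of the CCN family that restrains growth, 4.38 and 4.45 and 6.67 and 6.29. They rose by 2.14 and 2.06 (adjusted p = 5.5e-06 and 0.000158). Tnc, tenascin-C, an adhesion-modulating matrix protein, went from 4.81 and 4.69 to 6.33 and 6.73 (1.78 ± 0.13, adjusted p = 6.91e-06). A second, dimmer Tnc probe set did not follow, with a difference of -0.05. Elmo1, a partner of Dock proteins in Rac activation, rose by 1.83 (adjusted p = 3.38e-07), Cd200, an inhibitory surface ligand, by 1.65 (0.000448), and Rgcc, a cell cycle regulator induced by complement, by 1.64 (0.000466). Tmem268 rose by 1.67 (adjusted p = 3.76e-05). Wwp2, a ubiquitin ligase, rose by 1.64 (adjusted p = 1.47e-05) on its brightest probe set, while its 5 other probe sets did not pass. Ly6e, a GPI-anchored surface protein, was the brightest of the 15 in vector cells (8.79 and 8.70) and rose to 10.31 and 10.40 (1.61 ± 0.086, adjusted p = 4.48e-07).

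**Figure D2:**
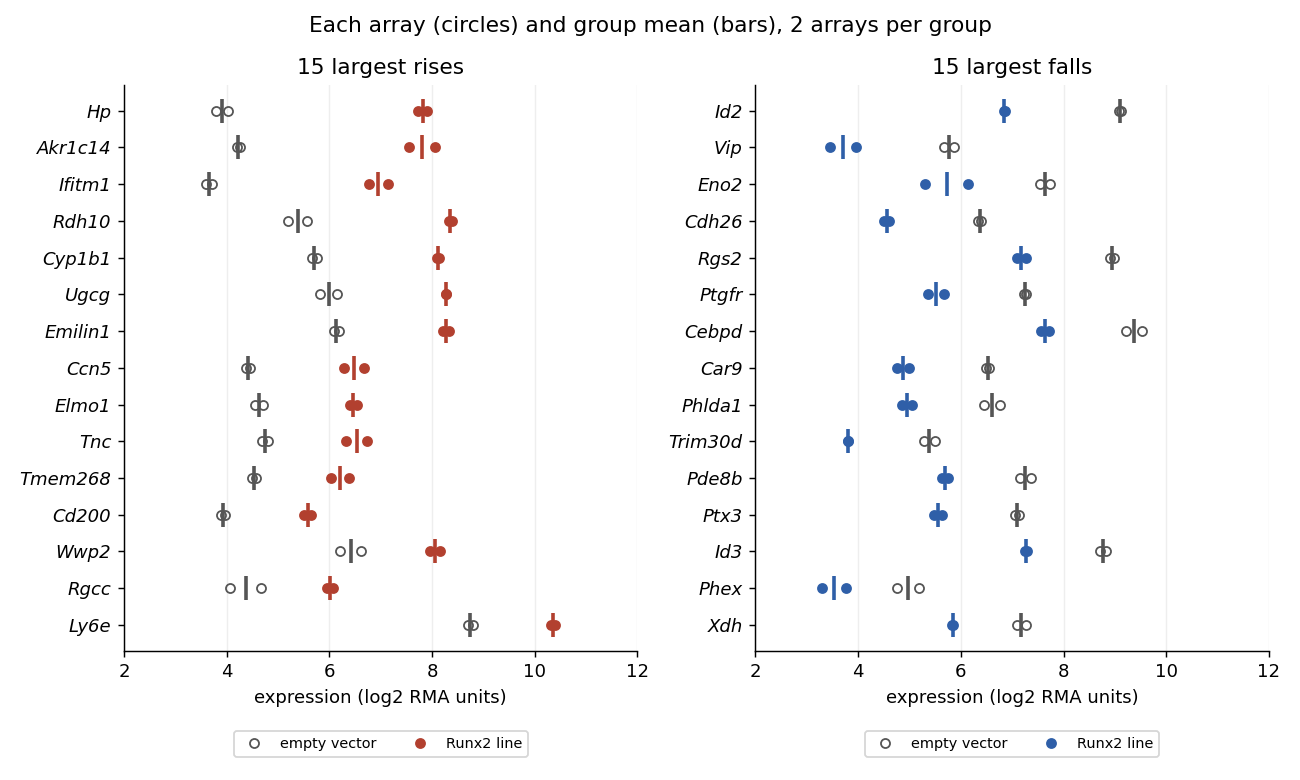
Expression (horizontal axis, log2 RMA units) of the 15 largest rises (left) and 15 largest falls (right) on each array, vector as open circles and the Runx2 line as filled circles, with group means as vertical bars, 2 arrays a group. Only genes whose Runx2 and vector arrays do not overlap were eligible, and the widest gap between replicates is 0.83 (Eno2).

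The largest fall was that of Id2, a helix-loop-helix protein without a DNA-binding region that holds back bHLH factors. Id2 measured 9.11 and 9.07 in vector and 6.86 and 6.84 in the Runx2 line, so it fell by 2.24 ± 0.11 (adjusted p = 1.62e-07). Vip, a secreted neuropeptide that raises cyclic AMP, went from 5.88 and 5.67 to 3.96 and 3.46 (-2.06 ± 0.16, adjusted p = 1.47e-05), which left 1 array below and 1 above the array median. Eno2, the neuronal form of the glycolytic enzyme enolase, went from 7.73 and 7.54 to 5.31 and 6.14 (-1.91 ± 0.20, adjusted p = 0.00014), with the widest replicate gap among these genes. Cdh26, an unusual cadherin, fell by 1.82 (adjusted p = 4.01e-05). Rgs2, which shortens signalling through Gq-coupled receptors, went from 8.91 and 8.98 to 7.26 and 7.09 (-1.77 ± 0.13, adjusted p = 5.64e-06). Ptgfr, a Gq-coupled receptor for prostaglandin F, went from 7.23 and 7.28 to 5.67 and 5.37 (-1.74 ± 0.14, adjusted p = 1.43e-05). Cebpd, a C/EBP factor induced by inflammatory and adipogenic signals, went from 9.53 and 9.22 to 7.56 and 7.72 (-1.73 ± 0.12, adjusted p = 5.26e-06). Both Runx2 arrays lay below both vector arrays by at least 1.65 in Rgs2, 1.56 in Ptgfr and 1.50 in Cebpd.

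The rest of the 15 falls had differences between -1.65 and -1.33. Car9, a surface carbonic anhydrase known as a hypoxia marker, measured 6.49 and 6.56 and 4.76 and 4.99 (adjusted p = 0.00084). Phlda1, a pleckstrin-homology protein tied to growth factor signalling, fell by 1.65 (adjusted p = 0.000191), and Pde8b, a phosphodiesterase specific for cyclic AMP, by 1.57 (1.63e-05). Ptx3, a secreted pattern-recognition pentraxin, fell by 1.54 (adjusted p = 4.98e-06), with a second, dimmer probe set at 0.11. Id3, a relative of Id2, fell by 1.50 (adjusted p = 0.000119), and Xdh, xanthine dehydrogenase of purine breakdown, by 1.33 (0.000169). Trim30d fell by 1.58 (adjusted p = 0.000395). Phex, an endopeptidase of bone cells that controls phosphate handling, went from 5.19 and 4.75 to 3.29 and 3.77 (-1.44 ± 0.16, adjusted p = 0.000219). Of these 30 genes, 28 kept their call in every alternative that measured them. Eno2 and Phex lost it in the fit on the 4 arrays alone, which leaves 2 residual degrees of freedom (adjusted p = 0.0548 and 0.0600).

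The letters that Runx factors bind were looked for in the 250 bases before the RefSeq start of each gene (build GRCm38.p6), as TGTGGT or TGCGGT on either strand. A promoter was found for 14452 of the measured genes, and 20.5% of these held the letters. The share was 17.3% among genes that rose, 19.9% among genes that fell and 8.7% (2 of 23) among the 30 genes above. The 2 were Car9, shown with the hypoxia genes, and Rgcc. The Rgcc promoter is printed because it is the one matched promoter among the 15 largest rises with these letters, shown in capitals (chr14:79301636-79301885, minus strand). A match is a description of the letters and not of binding, and this window leaves out enhancers.

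Rgcc: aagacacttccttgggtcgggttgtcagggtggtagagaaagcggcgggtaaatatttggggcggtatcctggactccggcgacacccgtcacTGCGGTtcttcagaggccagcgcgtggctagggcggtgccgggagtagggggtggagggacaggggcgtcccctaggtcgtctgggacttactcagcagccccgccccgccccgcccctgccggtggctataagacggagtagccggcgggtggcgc

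Of the 36 lists, the one with the most lower members held genes known to respond to low oxygen. Cells short of oxygen keep the hypoxia-inducible factors HIF1A and EPAS1, which otherwise are hydroxylated by the Egln oxygen sensors and destroyed. These factors bind short sites, of which the form ACGTG was searched here, and raise glucose uptake, glycolysis, acid export and collagen hydroxylation. In the Runx2 line 12 of 27 measured hypoxia-responsive genes outside glycolysis were lower and 1 was higher, with a median difference of -0.42. Of 20 glycolysis and glucose uptake genes, 7 were lower and none higher, with a median of -0.33. Over all genes the lower share was 1.65% and the median difference -0.01. Both lists were brighter than all genes, with median vector levels of 7.92 and 8.76 against 4.50. Among the 8048 genes with a mean above 5, tested alone, 440 were lower. The counts move with single arrays. Without Runx2 replicates 1 and 2 and vector replicates 1 and 2, in turn, the lower hypoxia genes numbered 10, 9, 12 and 7, and the lower glycolysis genes 3, 4, 3 and 4. No oxygen level, cell density or pH was measured, and their part in these differences was not tested.

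Promoters of 5 of the genes that fell are printed because they show the hypoxia response letters ACGTG (in capitals, either strand) close to the start. They are Slc2a1 (chr4:119108495-119108744, plus strand), Bnip3 (chr7:138909507-138909756, minus strand), Egln1 (chr8:124949255-124949504, minus strand), Ero1a (chr14:45318573-45318822, minus strand) and Car9 (chr4:43506776-43507025, plus strand). Each runs 5′ to 3′ on the gene's strand, from RefSeq on GRCm38.p6, and ends at the base before the start.
Slc2a1: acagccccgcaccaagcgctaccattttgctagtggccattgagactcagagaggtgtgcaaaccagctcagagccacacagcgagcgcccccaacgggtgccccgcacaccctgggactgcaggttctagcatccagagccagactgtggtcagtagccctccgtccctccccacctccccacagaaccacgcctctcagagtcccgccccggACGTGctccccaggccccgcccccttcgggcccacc
Bnip3: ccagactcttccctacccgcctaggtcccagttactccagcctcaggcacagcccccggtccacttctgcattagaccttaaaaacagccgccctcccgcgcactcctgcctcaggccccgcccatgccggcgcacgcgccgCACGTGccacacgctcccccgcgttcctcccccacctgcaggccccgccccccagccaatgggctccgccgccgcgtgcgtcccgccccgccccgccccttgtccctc
Egln1: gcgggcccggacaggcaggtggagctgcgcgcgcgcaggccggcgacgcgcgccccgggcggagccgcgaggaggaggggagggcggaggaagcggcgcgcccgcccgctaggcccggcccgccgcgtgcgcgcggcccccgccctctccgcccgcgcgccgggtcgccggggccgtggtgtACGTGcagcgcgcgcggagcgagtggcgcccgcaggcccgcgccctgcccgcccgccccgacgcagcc
Ero1a: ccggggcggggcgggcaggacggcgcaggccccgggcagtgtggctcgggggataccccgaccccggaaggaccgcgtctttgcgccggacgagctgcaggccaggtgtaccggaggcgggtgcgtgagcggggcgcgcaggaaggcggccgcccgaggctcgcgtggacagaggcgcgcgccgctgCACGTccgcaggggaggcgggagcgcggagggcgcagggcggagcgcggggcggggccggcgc
Car9: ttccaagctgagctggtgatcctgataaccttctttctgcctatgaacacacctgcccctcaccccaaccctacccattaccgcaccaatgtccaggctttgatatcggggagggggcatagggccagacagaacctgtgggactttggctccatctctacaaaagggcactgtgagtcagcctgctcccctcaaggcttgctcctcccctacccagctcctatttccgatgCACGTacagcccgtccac

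The letters began 36 bases before the start in Slc2a1, 68 in Egln1, 63 in Ero1a and 18 in Car9. In Bnip3 they stood on both strands as CACGTG, from 108 bases before the start. ACGTG was in the promoter of 11 of the 17 matched members of both lists that fell (64.7%), and in 14 of the 25 that did not fall (56.0%). It was in 22.5% of all measured genes, 30.1% of all that fell and 17.3% of all that rose. So the letters were frequent in both lists whether or not a member fell. Eno2 and Higd1a fell with no ACGTG in this window, and no other form of the site was searched.

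Among the sensors and stress genes, Egln1, the main oxygen-sensing prolyl hydroxylase, measured 8.71 and 8.61 in vector and 7.77 and 7.60 in the Runx2 line (-0.98 ± 0.10, adjusted p = 0.000156). Egln3, its inducible relative, went from 7.26 and 7.45 to 6.48 and 6.13 (-1.05 ± 0.18, adjusted p = 0.00514) and lost the call without vector replicate 2 (adjusted p = 0.0709). Ero1a, the oxidase that drives disulphide formation in the endoplasmic reticulum, went from 8.98 and 9.35 to 7.84 and 7.92 (-1.28 ± 0.14, adjusted p = 0.000218). Higd1a, a mitochondrial protein of the respiratory chain, is bright and went from 11.13 and 11.26 to 10.30 and 10.06 (-1.02 ± 0.13, adjusted p = 0.000688). The groups were separated in each of the 4, by 0.78 between the nearest arrays in Egln3 and by more in the others. Bnip3, a mitophagy receptor, fell by 0.97 (adjusted p = 0.00107), P4ha2 and Plod1, which hydroxylate collagen prolines and lysines, by 0.84 and 0.79 (adjusted p = 0.00208 and 0.00681). Plod1 was not called without Runx2 replicate 2 (0.0533) or vector replicate 2 (0.0785). Those 3, and Vegfa below, were named after their values were seen. Car12, Egln2 and Adm did not pass, with differences of -0.32, -0.086 and 0.0042. The member that rose was Vegfa, the angiogenic growth factor, from 6.51 and 6.28 to 6.86 and 7.24 (0.66, adjusted p = 0.0190), a call that was lost without Runx2 replicate 2 (0.122) and without vector replicate 2 (0.197). The other lower members were Mxi1, a MYC antagonist (-0.75, adjusted p = 0.0019, held with any single array left out), Plod2, a lysyl hydroxylase (-0.92, adjusted p = 0.00751, and 0.0631 without Runx2 replicate 2 and 0.103 without vector replicate 2), Kdm3a, a histone demethylase (-0.63, adjusted p = 0.00907, and 0.0883 without Runx2 replicate 1 and 0.129 without vector replicate 2) and Ndrg1 (-0.54, adjusted p = 0.0217, and 0.0883 without Runx2 replicate 1, 0.0913 without Runx2 replicate 2 and 0.232 without vector replicate 2).

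For glucose, Slc2a1, the main basal glucose transporter, measured 11.11 and 11.22 in vector and 10.05 and 9.86 in the Runx2 line (-1.21 ± 0.11, adjusted p = 4.88e-05). Hk2, the inducible hexokinase that traps glucose in the cell, went from 8.46 and 8.61 to 7.41 and 7.20 (-1.23 ± 0.14, adjusted p = 0.000377). Eno2 is given above. The nearest arrays of the groups were 1.06 apart in Slc2a1 and 1.05 apart in Hk2, which carry out the first steps of glucose use. Pdk1, a pyruvate dehydrogenase kinase, went from 9.75 and 9.78 to 9.02 and 8.97 (adjusted p = 0.0194). Pfkl, the liver form of phosphofructokinase, went from 10.59 and 10.58 to 10.07 and 9.91 (adjusted p = 0.0352). Both lost the call when any single array was left out, with adjusted p from 0.0795 to 0.139 for Pdk1 and from 0.0808 to 0.208 for Pfkl. Slc2a3, Hk1 and Pfkm did not pass, with differences of -0.042, -0.24 and 0.16. Gbe1, which branches glycogen, was not in either list and went from 6.18 and 6.22 to 5.46 and 5.32 (adjusted p = 0.00481, and 0.0553 without vector replicate 2). The last members that fell were Pdk3, a relative of Pdk1 (-0.54, adjusted p = 0.00834, and 0.0813 without Runx2 replicate 1 and 0.135 without vector replicate 1), and Pgam1, a phosphoglycerate mutase (-0.38, adjusted p = 0.0478, and 0.103 to 0.271 with any single array left out).

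**Figure D3:**
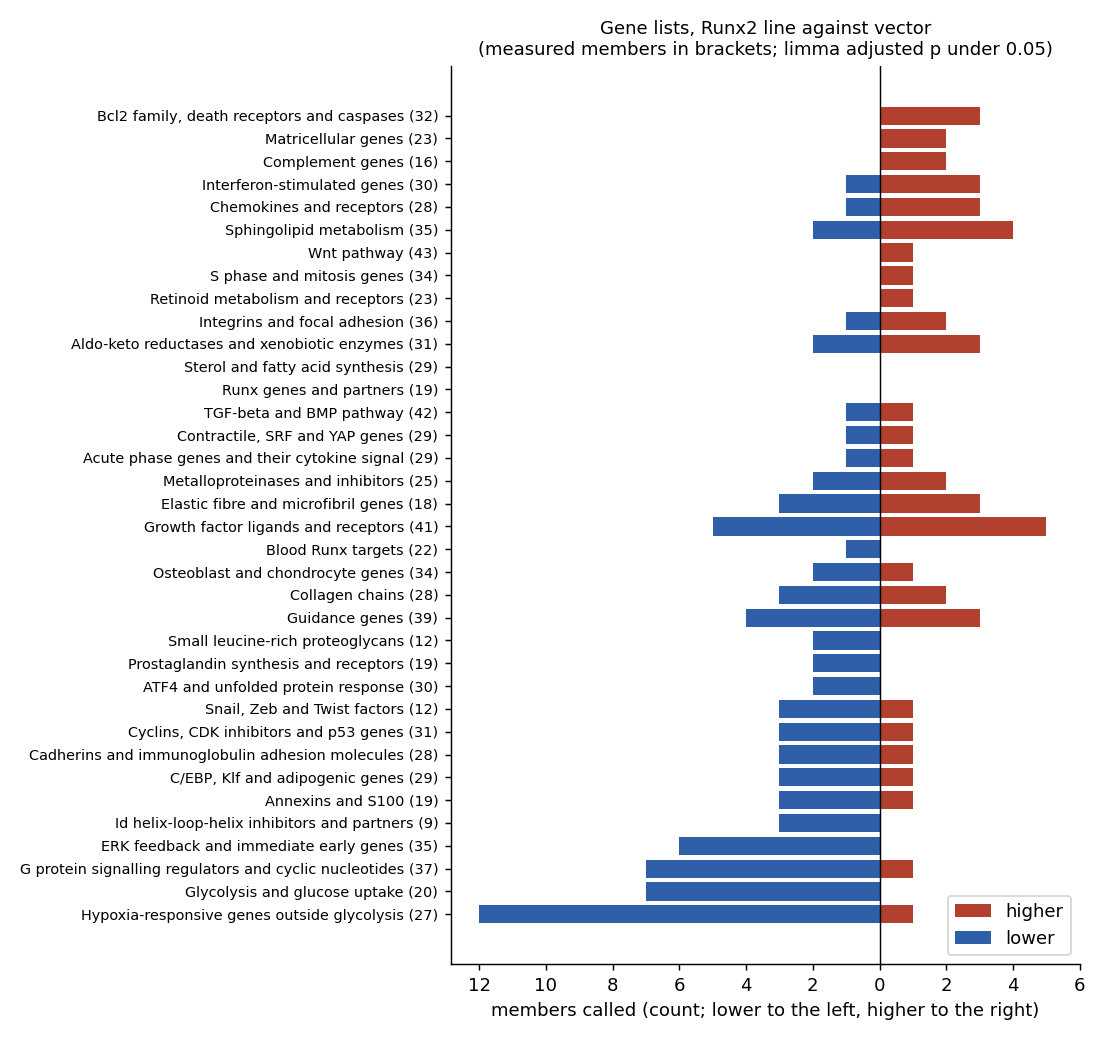
Number of members called lower (left of 0) and higher (right of 0) in the Runx2 line against vector for 36 gene lists, with the measured members in brackets. The hypoxia list has 12 lower members of 27 and the glycolysis list 7 of 20, and 2 lists, sterol and fatty acid synthesis and Runx genes and partners, have none.

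Extracellular matrix genes changed in both directions. For these and all later list counts against vector, 0.923% of all genes were higher and 1.65% lower. Of 28 collagen chains 2 were higher and 3 lower, with a median of 0.04. Col5a1, which starts collagen fibrils, rose from 9.15 and 9.33 to 10.14 and 10.14 (0.90 ± 0.12, adjusted p = 0.000841), and Col8a1, a short-chain collagen of vessel walls, fell from 7.21 and 7.02 to 5.92 and 6.29 (-1.01 ± 0.14, adjusted p = 0.000985). These were the collagens whose calls held with any single array left out. The others were Col6a2 (0.46), Col4a1 (-0.53) and Col4a5 (-0.38), and without Runx2 replicate 1 they had adjusted p = 0.134, 0.139 and 0.266, without vector replicate 1 0.295, 0.328 and 0.165. Col6a2 and Col4a1 were also lost without Runx2 replicate 2 (0.083 and 0.0986) and Col4a5 without vector replicate 2 (0.23). The main fibrillar chains did not pass, with differences of 0.42 for Col1a1, -0.019 for Col1a2 and -0.085 for Col3a1.

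Elastic fibre and microfibril genes split 3 higher and 3 lower of 18. Beside Emilin1, the microfibril protein Mfap5 rose from 6.10 and 6.12 to 7.49 and 7.74 (1.51 ± 0.10, adjusted p = 4.9e-06), though its second probe set did not (0.12). Fbln5, which ties elastin to cells, fell from 9.57 and 9.35 to 8.33 and 8.35 (-1.12 ± 0.099, adjusted p = 3.33e-05). Emilin2, the close relative of Emilin1, went the other way, from 7.08 and 7.10 to 6.14 and 6.37 (adjusted p = 0.00575), with the call lost without Runx2 replicate 1 (0.0703), vector replicate 1 (0.0533) or vector replicate 2 (0.0584). Eln itself, elastin, did not pass (0.071). Of 23 matricellular genes Ccn5 and Tnc rose and none fell, and the relatives Ccn1, Ccn2 and Ccn3 did not pass (0.069, 0.27 and -0.089). The remaining called genes belong to the elastic fibre and microfibril list. The third that rose was Loxl3, a lysyl oxidase that crosslinks matrix (0.64, adjusted p = 0.0194, and 0.0722 to 0.156 with any single array left out), and the third that fell was Efemp1, fibulin-3 (-0.61, adjusted p = 0.0021, held with any single array left out).

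Of 12 small leucine-rich proteoglycans, which coat collagen fibrils, 2 were lower: Dcn, decorin, from 5.30 and 5.29 to 4.24 and 4.53 (adjusted p = 0.00543) and Aspn, asporin, from 7.08 and 6.63 to 5.49 and 6.00 (0.0352). Neither was called without Runx2 replicate 1 (adjusted p = 0.0689 and 0.277), vector replicate 1 (0.0566 and 0.331) or vector replicate 2 (0.052 and 0.0676). Nor was either called against vector cells given 4-OHT (-0.50 and -0.35, adjusted p = 0.127 and 0.583), where no member of the list was lower. Among 25 metalloproteinases and inhibitors, a protease and its inhibitors moved in opposite directions. Mmp2, gelatinase A, rose from 9.09 and 9.0 to 9.64 and 9.73 (0.64 ± 0.087, adjusted p = 0.0012). Timp3, which is bound to the matrix, fell from 8.72 and 8.72 to 7.88 and 7.96 (-0.80 ± 0.09, adjusted p = 0.000234), and Timp2 fell from 11.19 and 11.25 to 10.73 and 10.66 (-0.52 ± 0.08, adjusted p = 0.00278). Adamts4, an aggrecanase, was the other that rose, from 4.69 and 4.78 to 5.61 and 5.47 (adjusted p = 0.00622), and was not called without Runx2 replicate 1 (0.0661) or vector replicate 1 (0.0783).

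Adhesion is the other subject of the series title. Of 36 integrin and focal adhesion genes 2 were higher and 1 lower (8.33% called, against 2.57% of all genes), and all 3 kept the call with any single array left out. The list is brighter than all genes, with a median vector level of 6.63 against 4.50, and brighter genes were called more often. Among the 8048 genes with a mean above 5, tested alone, 644 were called, so the list does not stand out from genes of its level. Itgb5, which pairs with integrin alpha-v to bind vitronectin, rose from 7.81 and 7.84 to 8.73 and 8.61 (0.84 ± 0.12, adjusted p = 0.00146). Sdc1, syndecan 1, a heparan sulphate co-receptor for matrix, rose from 8.37 and 8.37 to 9.13 and 9.34 (0.87 ± 0.093, adjusted p = 0.000179). Itga6, a laminin receptor chain, fell from 7.81 and 7.82 to 6.79 and 6.70 (-1.07 ± 0.16, adjusted p = 0.00201). The widest gap between replicates among these was 0.21, in the Runx2 arrays of Sdc1. Itga1, Itga2 and Itga3 did not pass (0.081, -0.26 and 0.065).

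Of 28 cadherins and immunoglobulin-type adhesion molecules 1 was higher and 3 lower (14.3% called). Ncam1, the neural cell adhesion molecule, rose from 7.81 and 7.92 to 9.06 and 9.16 (1.25 ± 0.14, adjusted p = 0.00021), and Pcdh18, a protocadherin, fell from 6.15 and 6.08 to 5.38 and 5.32 (-0.76 ± 0.10, adjusted p = 0.00083). Alcam (-0.89) and Pcdh19 (-0.48) were also lower. Alcam was not called without Runx2 replicate 2 (0.0671) or vector replicate 1 (0.136), nor Pcdh19 without Runx2 replicate 1 (0.103) or vector replicate 2 (0.176). Cdh26 is given above as one of the largest falls. The classical cadherins Cdh1, Cdh2 and Cdh3 did not pass (0.34, -0.23 and -0.093).

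Guidance genes, which steer axons and migrating cells, numbered 3 higher and 4 lower of 39. Sema7a, a membrane-anchored semaphorin that acts through integrins, rose from 4.30 and 4.28 to 5.29 and 5.17 (0.94 ± 0.13, adjusted p = 0.000951), and Sema3a, a secreted repellent, fell from 8.46 and 8.52 to 7.68 and 7.92 (-0.70 ± 0.11, adjusted p = 0.00257). The neuropilin Nrp2, a co-receptor, rose from 6.86 and 6.51 to 7.40 and 7.58 (adjusted p = 0.00471, and 0.0713 without vector replicate 2). Without vector replicate 2 the whole list held 1 higher and 1 lower call. The others that fell were the ephrin Efna5 (-0.84, adjusted p = 0.00323, and 0.0533 without vector replicate 2), the repellent Slit2 (-0.60, adjusted p = 0.0068, and 0.0773 without Runx2 replicate 1, 0.0502 without vector replicate 1 and 0.0772 without vector replicate 2) and Nrp1, the relative of Nrp2 (-0.52, adjusted p = 0.00725, and 0.0856 without Runx2 replicate 1, 0.0566 without vector replicate 1 and 0.0785 without vector replicate 2). The ephrin Efnb2 was the other that rose (0.57, adjusted p = 0.0493, and 0.0758 to 0.238 with any single array left out).

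Of 28 chemokines and receptors 3 were higher and 1 lower, with 0.923% of all genes higher and 1.65% lower. Ccl2 and Ccl7, neighbouring genes for chemokines that draw in monocytes, rose together: Ccl2 from 6.71 and 6.87 to 7.73 and 7.85 (1.00 ± 0.12, adjusted p = 0.000466) and Ccl7 from 6.06 and 6.05 to 7.22 and 7.35 (1.23 ± 0.15, adjusted p = 0.000448). The next genes of the cluster, Ccl11, Ccl12, Ccl8 and Ccl1, were dim in both lines and did not pass (differences from -0.15 to 0.16). Ackr3, a scavenger receptor that removes the chemokine Cxcl12, fell from 9.27 and 9.33 to 8.17 and 8.08 (-1.18 ± 0.12, adjusted p = 0.000119). Ccr7, a lymphocyte homing receptor, was dim in both lines (3.47 and 3.33 and 4.43 and 4.04, adjusted p = 0.00353) and was not called without vector replicate 2 (0.0553).

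Of 30 interferon-stimulated genes 3 were higher and 1 lower, with a median of 0.14. Ifitm3, next to Ifitm1 in the genome and bright in both lines, rose from 10.76 and 10.70 to 11.48 and 11.52 (0.77 ± 0.086, adjusted p = 0.000234). The other Ifitm genes of the cluster did not pass, with differences of 0.13 for Ifitm2, -0.19 for Ifitm5 and 0.14 for Ifitm6. Ifi35 rose from 7.42 and 7.21 to 7.95 and 8.19 (adjusted p = 0.000985), while Ifit2, a translation inhibitor strongly induced by interferon, fell from 6.33 and 6.19 to 5.51 and 5.67 (adjusted p = 0.00197). Ifitm1 was the one member of the list called with a change of 2-fold or more.

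In the acute phase list Hp rose and Cebpd fell, and the other 27 members did not pass. Saa1, Saa2 and Cp, liver acute phase proteins like haptoglobin, had differences of -0.074, 0.21 and 0.15. The 4 measured neighbours nearest to Hp (Dhx38, Txnl4b, Dhodh and Ist1) also did not pass, with differences from -0.10 to 0.30. Of 16 complement genes 2 were higher: Masp1, a protease of the lectin pathway, from 6.29 and 6.15 to 7.30 and 7.44 (1.15 ± 0.098, adjusted p = 2.37e-05), and C1ra, a protease of the classical pathway, from 7.37 and 7.31 to 7.80 and 8.16 (adjusted p = 0.00895). C1ra was not called without Runx2 replicate 2 (0.0663), vector replicate 1 (0.0636) or vector replicate 2 (0.0944).

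Among enzymes of small molecules, single members of families rose. Akr1c14 sits in a cluster of aldo-keto reductase genes, and the 4 that follow it, Akr1c18, Akr1c13, Akr1c19 and Akr1c12, had differences from -0.23 to -0.049 and did not pass. The genes of this cluster are similar in sequence, so a probe set may read more than one. Of the 31 aldo-keto reductase and xenobiotic genes 3 were higher and 2 lower. The third that rose, with Cyp1b1, was Gsta4, a glutathione transferase for lipid peroxidation products, from 9.62 and 9.53 to 10.61 and 10.65 (1.06 ± 0.088, adjusted p = 2.08e-05). Of 23 retinoid genes Rdh10 was the one that passed, and the other retinol and retinal enzymes Rdh11, Rdh5 and Dhrs3 had differences of 0.012, -0.26 and 0.29. The 2 lower genes belong to the aldo-keto reductase and xenobiotic list. The lower ones were Cbr2, a carbonyl reductase (-0.46, adjusted p = 0.0109, and 0.0858 without Runx2 replicate 1 and 0.148 without vector replicate 1), and Gstm1, a glutathione transferase (-0.41, adjusted p = 0.0424, and 0.12 to 0.279 with any single array left out).

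Sphingolipid genes numbered 4 higher and 2 lower of 35, with a median of -0.03. Beside Ugcg, a later step to gangliosides rose too: St3gal5, which makes ganglioside GM3, went from 7.06 and 7.06 to 7.68 and 7.81 (0.69 ± 0.087, adjusted p = 0.000639). Sgpp1, a phosphatase that removes sphingosine 1-phosphate inside the cell, fell from 8.42 and 8.44 to 7.37 and 7.60 (-0.95 ± 0.095, adjusted p = 0.000119). Plpp1, a surface lipid phosphate phosphatase, rose from 8.62 and 8.59 to 9.26 and 9.29 (0.67 ± 0.079, adjusted p = 0.000377), and its relative Plpp3 fell from 7.80 and 7.95 to 7.17 and 7.30 (-0.64, adjusted p = 0.00736). The Plpp3 call was lost without Runx2 replicate 1 (0.0786) and without vector replicate 2 (0.0987). The serine palmitoyltransferase genes Sptlc1, Sptlc2 and Sptlc3, which begin the pathway, did not pass (0.20, 0.027 and 0.059), and none of 29 sterol and fatty acid synthesis genes passed. The fourth that rose was the sphingomyelinase gene Smpd2 (0.42, adjusted p = 0.0474, and 0.0703 to 0.288 with any single array left out).

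Regulators of signalling downstream of G protein-coupled receptors formed the next list. Of 37 regulators of G protein and cyclic nucleotide signalling 7 were lower and 1 higher (4, 7, 4 and 5 lower without Runx2 replicates 1 and 2 and vector replicates 1 and 2, in turn), beside 1.65% lower and 0.923% higher of all genes, with a median of -0.03. They included Vip, Rgs2 and Pde8b, given above, and Pde4d, a cyclic AMP phosphodiesterase, from 5.97 and 5.81 to 4.77 and 5.15 (-0.93 ± 0.13, adjusted p = 0.00107). Pde8a, the close relative of Pde8b, was the one that rose, from 3.72 and 3.81 to 4.29 and 4.43 (0.60, adjusted p = 0.00624), and lost the call without vector replicate 1 (0.0846). Rgs1, Rgs3 and Rgs4 did not pass (0.051, -0.11 and -0.013). Of 19 prostaglandin genes 2 were lower: Ptgfr and Ptges, the inducible prostaglandin E synthase, from 6.17 and 6.08 to 5.55 and 5.21 (adjusted p = 0.00342, and 0.0529 without vector replicate 1). Ptgs2, the inducible cyclooxygenase, had a difference of -0.84 and did not pass (adjusted p = 0.103). The remaining lower genes belong to the G protein and cyclic nucleotide list. Pde4b, the relative of Pde4d (-0.55, adjusted p = 0.00791, and 0.0928 without Runx2 replicate 1 and 0.112 without vector replicate 1), and the kinase subunits Prkg2 (-0.54, adjusted p = 0.0181, and 0.172 without Runx2 replicate 1, 0.18 without vector replicate 1 and 0.08 without vector replicate 2) and Prkar2b (-0.50, adjusted p = 0.0242, and 0.213 without Runx2 replicate 1, 0.195 without vector replicate 1 and 0.118 without vector replicate 2) completed the lower members.

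Among 35 genes of the ERK pathway's feedback and immediate early response, 6 were lower and none higher, with a median of -0.24 (4, 5, 3 and 5 lower without Runx2 replicates 1 and 2 and vector replicates 1 and 2, in turn). Jun and Fosl1, subunits of the AP-1 factor, fell from 8.49 and 8.29 to 7.40 and 7.13 (-1.12 ± 0.17, adjusted p = 0.00208) and from 7.95 and 7.96 to 6.91 and 7.12 (-0.94 ± 0.11, adjusted p = 0.000466). Dusp1, a phosphatase of MAP kinases, went from 7.70 and 8.04 to 7.01 and 7.00 (-0.86 ± 0.12, adjusted p = 0.0019). Errfi1, an inhibitor of the EGF receptor, went from 9.37 and 8.91 to 7.97 and 7.98 (-1.17, adjusted p = 0.00308, and 0.0529 without vector replicate 1). The nearest arrays of the groups were 0.69 apart in Dusp1 and further apart in the other 3. The largest difference of the list belonged to Nr4a1, an immediate early nuclear receptor, which did not pass: it measured 10.39 and 8.71 in vector and 7.38 and 7.60 in the Runx2 line (-2.06, adjusted p = 0.0975), with vector arrays far apart. Egr2 and Egr1, immediate early zinc-finger factors, did not pass either (-1.13 and -0.72, adjusted p = 0.258 and 0.204). These 3 were named after their values were seen. The AP-1 letters TGANTCA were in the promoters of 6.4% of genes that fell, 11.3% of genes that rose and 6.7% of all measured genes. The phosphatases Dusp6, which acts on ERK (-0.57, adjusted p = 0.0482, and 0.342 without Runx2 replicate 1, 0.123 without vector replicate 1 and 0.321 without vector replicate 2), and Dusp14 (-0.38, adjusted p = 0.0369, and 0.0785 to 0.332 with any single array left out) were the others that fell.

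Growth factor ligands and receptors changed 5 each way among 41. Kitl, stem cell factor, fell from 8.71 and 8.72 to 7.51 and 7.83 (-1.05 ± 0.11, adjusted p = 0.000195), and Igfbp4, which binds insulin-like growth factors, from 9.52 and 9.46 to 8.82 and 8.64 (-0.76 ± 0.10, adjusted p = 0.000984). Irs1, the adaptor of the insulin and IGF1 receptors, rose from 7.45 and 7.59 to 8.63 and 8.72 (1.15 ± 0.098, adjusted p = 2.34e-05). The PDGF receptors moved apart: Pdgfrb rose from 7.32 and 7.20 to 8.03 and 8.45 (adjusted p = 0.00459) and Pdgfra, the brighter, fell from 11.15 and 11.12 to 10.53 and 10.64 (0.00893). Without vector replicate 2 neither was called (0.0594 and 0.0701), nor was Pdgfra without Runx2 replicate 1 (0.0897) or vector replicate 1 (0.092). In that list 2 higher and 2 lower calls were left without vector replicate 1, and 1 and 3 without vector replicate 2. The ligands Vegfd (-0.62, adjusted p = 0.0354, and 0.294 without Runx2 replicate 1, 0.137 without vector replicate 1 and 0.237 without vector replicate 2) and Nrg1, neuregulin 1 (-0.55, adjusted p = 0.00846, and 0.0808 without Runx2 replicate 1 and 0.136 without vector replicate 1), also fell. The others that rose were Ghr, the growth hormone receptor (0.53, adjusted p = 0.0184, and 0.119 without Runx2 replicate 2, 0.11 without vector replicate 1 and 0.145 without vector replicate 2), Igfbp6, an IGF-binding protein (0.47, adjusted p = 0.0057, and 0.0566 without vector replicate 1 and 0.0559 without vector replicate 2), and Fgf7, a fibroblast growth factor that acts on epithelium (0.46, adjusted p = 0.00834, and 0.0572 without Runx2 replicate 2, 0.0697 without vector replicate 1 and 0.0825 without vector replicate 2).

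The TGF-beta and Wnt lists held 2 and 1 called members (4.76% and 2.33%, against 2.57% of all genes). Of 42 TGF-beta and BMP genes Tgfbr2 rose (0.54, adjusted p = 0.013) and Tgfbr3, the co-receptor betaglycan, fell (-0.44, 0.0232), and neither was called without Runx2 replicate 2 (0.0864 and 0.0516), vector replicate 1 (0.0816 and 0.159) or vector replicate 2 (0.12 and 0.14), nor Tgfbr3 without Runx2 replicate 1 (0.164). Of 43 Wnt genes Tcf7l1, a largely repressive TCF factor, rose from 7.96 and 7.93 to 8.58 and 8.63 (0.66 ± 0.084, adjusted p = 0.000664) and no other passed.

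All 3 measured Id genes other than Id4 fell. Id1, Id2 and Id3 are classical targets of BMP signalling that keep cells undifferentiated. Id1 went from 8.99 and 8.96 to 8.26 and 8.11 (-0.79 ± 0.12, adjusted p = 0.00278), Id2 and Id3 are given above, and Id4 had a difference of -0.58 that did not pass (adjusted p = 0.222). The 3 calls held with any single array left out and in the fit on 4 arrays alone. Their bHLH partners Tcf3 and Tcf4 did not pass (-0.09 and -0.13). Beside Id2 in the genome, Rnf144a was also lower, from a mean of 6.50 to 5.62 (-0.88 ± 0.16, adjusted p = 0.00808), and was named after its value was seen. Rnf144a was not called without Runx2 replicate 1 (0.0879) or vector replicate 1 (0.106). The other measured neighbours of Id2 did not pass.

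Transcription factors of mesenchyme were next. Of 12 Snail, Zeb, Twist and Prrx genes 3 fell and 1 rose. Prrx1, a homeobox factor of limb and skeletal mesenchyme, fell from 10.35 and 10.41 to 9.50 and 9.60 (-0.82 ± 0.09, adjusted p = 0.0002) and Prrx2 from 7.70 and 7.80 to 7.09 and 6.91 (-0.76 ± 0.12, adjusted p = 0.00278). Twist2, a bHLH factor that restrains osteoblast differentiation by blocking Runx2, fell from 8.80 and 8.82 to 8.16 and 8.07 (-0.69 ± 0.083, adjusted p = 0.000401). Snai1, a repressor of epithelial genes, rose from 6.46 and 6.35 to 7.66 and 7.48 (1.16 ± 0.20, adjusted p = 0.00582), though not without Runx2 replicate 1 (0.0603) or vector replicate 2 (0.0675).

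The 34 osteoblast and chondrocyte genes, the textbook setting of Runx2, held 1 higher and 2 lower, with a median of 0.03. The lower ones were Phex and Twist2. Sox9, the chondrocyte master factor, went from 6.82 and 6.84 to 7.30 and 7.47 (adjusted p = 0.0234), and was not called without any one of the 4 arrays (adjusted p from 0.0531 without Runx2 replicate 1 to 0.169 without vector replicate 1). Sp7, Ibsp and Alpl, classical markers of bone-forming cells, did not pass: Sp7 measured 4.19 and 4.39 in vector and 4.27 and 4.28 in the Runx2 line, Ibsp 3.47 and 3.46 and 3.43 and 3.39, and Alpl 3.72 and 3.62 and 3.66 and 3.76. The arrays of Sp7 and Alpl overlapped between the groups, and those of Ibsp lay slightly lower in the Runx2 line without overlap. Of 22 genes known as Runx targets in blood cells, Cd34, a sialomucin of stem cells and some fibroblasts, fell from 9.65 and 9.51 to 8.61 and 8.75 (-0.91 ± 0.10, adjusted p = 0.000234), and no other passed.

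In the list of C/EBP, Klf and adipogenic genes 3 were lower and 1 higher of 29. Lpl, lipoprotein lipase, rose from 4.55 and 4.41 to 6.10 and 5.85 (1.49 ± 0.20, adjusted p = 0.000871), with a second probe set at 0.05. Dlk1, a Notch-like protein that blocks adipogenesis and is bright in these cells, fell from 12.48 and 12.21 to 11.57 and 11.61 (-0.75 ± 0.10, adjusted p = 0.000985). Klf4 went from 8.53 and 8.33 to 7.36 and 7.79 (adjusted p = 0.0118) and was not called without Runx2 replicate 1 (0.129) or vector replicate 1 (0.148). Cebpa, Cebpb and Cebpg, relatives of Cebpd, did not pass (0.095, 0.26 and -0.041).

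Of 32 Bcl2 family, death receptor and caspase genes, the survival side of the series title, 3 were higher and none lower (9.38% called, against 2.57% of all genes). This list too was brighter than all genes, with a median vector level of 5.98 against 4.50. Of the 8048 genes with a mean above 5, tested alone, 644 were called. Casp12, an inflammatory-type caspase of the endoplasmic reticulum, rose from 7.09 and 6.97 to 7.77 and 8.12 (0.92 ± 0.14, adjusted p = 0.00248). Casp4 (0.85, adjusted p = 0.0296) and the survival factor Bcl2 (0.60, 0.0354) were not called without vector replicate 1 (0.119 and 0.16), vector replicate 2 (0.218 and 0.217) or Runx2 replicate 2 (0.164 and 0.0783), nor was Bcl2 without Runx2 replicate 1 (0.196). Bcl2l1 and Mcl1 did not pass (0.025 and -0.39).

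Of 31 cyclin, CDK inhibitor and p53 genes 3 were lower and 1 higher, and of 34 S phase and mitosis genes 1 was higher. Both lists had medians close to that of all genes, at -0.04 and 0.04. Cdkn1a, the CDK inhibitor p21, went from 9.0 and 8.99 to 8.63 and 8.51 (-0.42, adjusted p = 0.0369), Ccnd3, a D-type cyclin, from 8.16 and 8.22 to 7.68 and 7.68 (-0.50, 0.0128) and Top2a, the topoisomerase of dividing cells, from 9.29 and 9.30 to 9.65 and 9.68 (0.37, 0.0432). None of the 3 was called with any single array left out, with adjusted p from 0.0831 to 0.209 for Cdkn1a, 0.055 to 0.12 for Ccnd3 and 0.131 to 0.249 for Top2a. Ccnd1, Ccnd2 and Mcm3 did not pass (-0.087, -0.31 and -0.36). The third lower gene was Rbl2, the pocket protein p130 (-0.56, adjusted p = 0.0138, and 0.0586 without Runx2 replicate 1, 0.0726 without Runx2 replicate 2 and 0.188 without vector replicate 1), and Sesn1, a sestrin induced by p53, rose (0.44, adjusted p = 0.0463, and 0.1 to 0.276 with any single array left out). Annexins and S100 genes numbered 3 lower and 1 higher of 19. Their largest change was a rise of Anxa8, a phospholipid-binding annexin, from 5.43 and 5.43 to 6.55 and 6.44 (1.06, adjusted p = 0.00481), which was not called without vector replicate 1 (0.0512). The lower members of this list numbered 0 without Runx2 replicate 1, 1 without Runx2 replicate 2, and 0 without either vector replicate. The members that fell were Anxa3 (-0.46, adjusted p = 0.00694, and 0.0545 without Runx2 replicate 1, 0.0638 without vector replicate 1 and 0.0681 without vector replicate 2), Anxa5 (-0.39, adjusted p = 0.0185, and 0.0505 to 0.137 with any single array left out) and Anxa2 (-0.37, adjusted p = 0.0265, and 0.0951 to 0.22 with any single array left out).

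In the last pathway lists, 1 of 29 contractile, SRF and YAP genes was higher, Cnn2, a calponin (0.43, adjusted p = 0.0233, and 0.0631 to 0.194 with any single array left out), and 1 lower, Fhl2, a LIM-domain cofactor (-0.48, adjusted p = 0.047, and 0.0726 to 0.386 with any single array left out). Of 30 genes of the ATF4 and unfolded protein response 2 were lower: Aldh1l2, a mitochondrial folate enzyme (-0.62, adjusted p = 0.00545, and 0.0766 without vector replicate 1), and Atf5, a stress-induced factor (-0.56, adjusted p = 0.0293, and 0.101 without Runx2 replicate 1, 0.116 without Runx2 replicate 2 and 0.328 without vector replicate 1).

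To ask which levels differ between Runx2 and its relatives, the Runx2 line was compared directly with the mean of the mouse Runx1 and Runx3 lines, a difference that holds no vector array, though the spread was estimated over all groups. At an adjusted p under 0.05 by limma, 159 genes differed (0.874%), 80 higher (0.44%) and 79 lower (0.434%). In 124 of them, 65 higher and 59 lower, both Runx2 arrays lay outside the range of all 4 Runx1 and Runx3 arrays. The share of all genes with arrays placed in this way was not counted, so the 124 is not a measure of separation. The count was 45 in a fit on the 6 compared arrays alone, 58 without Runx2 replicate 1, 99 and 92 without Runx1 replicates 1 and 2, and 158 without Runx2 replicate 2. The levels of the introduced proteins were not measured, and a difference of dose between the lines and a difference between the factors cannot be told apart.

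Hp stood furthest apart. Its Runx1 arrays (3.90 and 4.29) and Runx3 replicate 2 (4.13) were close to the vector level, while Runx3 replicate 1 (4.96) lay above both vector arrays. The Runx2 line was 3.50 ± 0.19 above the mean of the Runx1 and Runx3 lines (adjusted p = 1.35e-06). Akr1c14 was as low in the Runx1 line (4.64 and 4.00) as in vector, but high in the Runx3 line (7.50 and 7.02), so that its difference of 2.01 ± 0.19 (adjusted p = 0.00031) is mainly one from Runx1. Against Runx3 alone it did not pass (0.54, adjusted p = 0.248), and neither did Ccn5 (0.57, 0.217) nor Lpl (0.63, 0.117), the genes given next. Ccn5 and Lpl had the same order of the 3 lines, Runx1 lowest and Runx2 highest: Ccn5 measured 4.28 and 4.85 in the Runx1 and 6.20 and 5.63 in the Runx3 arrays (1.24 ± 0.19, adjusted p = 0.00748), and Lpl 4.72 and 4.44 and 5.58 and 5.11 (1.01 ± 0.17, 0.0124). Both Runx3 arrays of these genes lay below both Runx2 arrays, but neither call held without Runx2 replicate 1 (adjusted p = 0.107 and 0.168), nor Lpl without Runx1 replicate 2 (0.0552). Sned1, a matrix protein with fibronectin repeats, measured 5.66 and 5.78 in the Runx2 line, 4.26 and 4.37 in Runx1 and 4.64 and 4.65 in Runx3, with vector in between at 5.15 and 5.14 (1.24 ± 0.11, adjusted p = 0.000296). Its call against vector was lost with any single array left out (adjusted p from 0.0937 to 0.188). Ptpn3, a tyrosine phosphatase, had the same pattern (1.16 ± 0.15, 0.00374), with vector at 5.73 and 5.77.

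Some genes lay above the mean of both relatives in the Runx2 line but below vector. Egln3 measured 5.96 and 5.92 in Runx1 and 4.96 and 4.58 in Runx3, against 6.48 and 6.13 in Runx2 and 7.26 and 7.45 in vector (0.95 ± 0.15 above the mean of both lines, adjusted p = 0.00884). Ackr3 measured 8.06 and 7.79 and 6.49 and 6.42 against 8.17 and 8.08 in Runx2 (0.93 ± 0.10, 0.00124), with Runx3 far lower than both others. Against Runx1 alone neither Egln3 (0.37, adjusted p = 0.475) nor Ackr3 (0.19, 0.61) passed. Hk2 had the opposite order and was lowest in the Runx2 line, at 8.07 and 7.94 in Runx1 and 8.13 and 8.20 in Runx3 (-0.78 ± 0.13, adjusted p = 0.00919). Gbe1 was also lowest there, though against Runx3 alone it did not pass (-0.48, adjusted p = 0.0764), with 6.38 and 6.38 and 5.93 and 5.81 (-0.73 ± 0.12, 0.00884). Single arrays decided most of these calls: without Runx2 replicate 1 Egln3 had adjusted p = 0.147 and Gbe1 0.0606, and without Runx2 replicate 2 Hk2 had 0.0767 and Gbe1 0.0698. The hypoxia and glycolysis lists as a whole held 1 higher and 2 lower members in this direct comparison, Egln3, Hk2 and P4ha2 (-0.54, adjusted p = 0.0333, named after its value was seen and not called with any one of the 6 arrays left out, at 0.0795 to 0.166). For these lists the mean of Runx1 and Runx3 joins unlike lines. Against vector, the median differences of the hypoxia and glycolysis lists were -0.07 and -0.04 in Runx1 and -0.44 and -0.42 in Runx3. In the Runx2 line they were -0.42 and -0.33, close to Runx3.

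Ccn2, a matricellular growth factor modulator, was higher than vector in Runx1 and Runx3 (adjusted p = 0.000818 and 6.98e-05, where 0.973% and 3.97% of all genes were called higher) and did not pass in Runx2. It measured 6.38 and 6.51 in vector, 6.68 and 6.75 in Runx2, 7.60 and 7.43 in Runx1 and 7.73 and 7.54 in Runx3 (-0.86 ± 0.12, adjusted p = 0.00455). Slc40a1, the iron exporter ferroportin, was above vector in all 3 lines and least so in Runx2 (4.99 and 5.39, against 5.73 and 5.61 in Runx1, 7.00 and 6.65 in Runx3 and 4.42 and 3.97 in vector; -1.06 ± 0.15, 0.00561). Its difference from Runx1 alone did not pass (-0.48, adjusted p = 0.301). S100a16 and Ccbe1, a regulator of lymphatic growth, were also lower in Runx2 than in both relatives and higher than in vector (-0.83 and -0.73, adjusted p = 0.00124 and 0.00168). Igfbp4 fell in Runx2, while the arrays of Runx1 (9.61 and 9.51) and Runx3 (9.81 and 9.85) lay within or above the range of the vector arrays (-0.96 ± 0.088, adjusted p = 0.000296). Oaf was lowest in Runx2 (6.58 and 6.79) and highest in Runx1 (7.77 and 7.89), with a difference of -0.73 ± 0.12 (adjusted p = 0.00884). Against Runx3 alone Oaf did not pass (-0.32, adjusted p = 0.282). Of the calls against vector, that of Slc40a1 was lost without Runx2 replicate 2 (0.061) and vector replicate 2 (0.105), that of Ccbe1 without vector replicate 2 (0.0553), and that of S100a16 with any single array left out (0.113 to 0.197). In the direct comparison, without Runx2 replicate 1, Ccn2, Slc40a1 and Oaf were not called (adjusted p = 0.058, 0.0919 and 0.141).

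**Figure D4:**
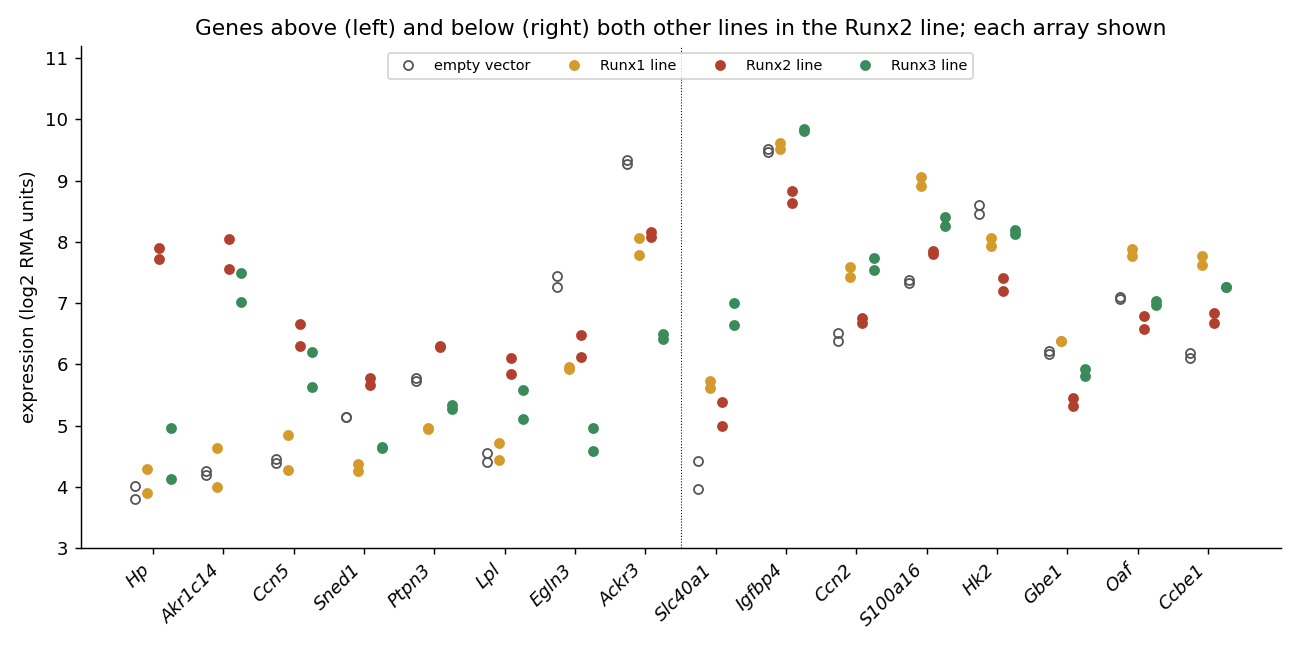
Expression (vertical axis, log2 RMA units) on each array of vector, Runx1, Runx2 and Runx3 cells for the 8 genes furthest above (left of the dotted line) and the 8 furthest below (right) both other lines in Runx2. Hp is high in the Runx2 arrays and near vector in the Runx1 arrays and Runx3 replicate 2, with Runx3 replicate 1 somewhat above vector. Akr1c14, Ccn5 and Lpl are also raised in both Runx3 arrays.

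The changes of the Runx2 line were last set beside those made by 24 h of RUNX1-ER induction, a comparison of induced with uninduced cells. Its differences use no array of the Runx2 line or of vector, but all groups were fitted together, so both comparisons share 1 estimate of each gene's spread, and genes with a small spread are more readily called in both. Induction changed 349 genes (1.92%), 183 higher (1.01%) and 166 lower (0.912%), and with each array centred on its median the split was 145 higher and 195 lower. Without induced replicates 1 and 2 and uninduced replicates 1 and 2, in turn, the count was 145, 129, 305 and 153, and in a fit on these 4 arrays alone it was 93. Of the genes called in the Runx2 line, 70 were called higher and 110 lower in both comparisons. These 180 are 38.5% of the Runx2 calls and 51.6% of the RUNX1-ER calls. RUNX1-ER differences were above 0 for 152 of the 168 genes that rose in the Runx2 line (90.5%) and below 0 for 275 of the 300 that fell (91.7%), while 55.8% of all genes were above 0. Over 8048 genes with a mean level above 5, the differences correlated with r = 0.55 and Spearman's rho = 0.39, given as a description across genes, which share arrays and are not independent. Induced and uninduced cells differ in 4-OHT as well as in RUNX1-ER activity. In vector cells limma called 0 genes for the drug, with 2 arrays a group and 1225 genes at an unadjusted p under 0.05. The part of the drug in the differences on induction was not tested.

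Among the large rises, Akr1c14 went from 4.35 and 4.46 uninduced to 7.22 and 7.44 induced (2.92 ± 0.22, adjusted p = 1.84e-05) although the stable Runx1 line had it at the vector level. Rdh10 went from 5.61 and 5.72 to 7.92 and 7.86 (2.23 ± 0.11, 7.91e-07) and Emilin1 from 6.42 and 6.41 to 8.32 and 8.03 (1.76 ± 0.15, 4.39e-05). Ccn5 rose by 1.82 (adjusted p = 0.000588), Ugcg by 1.22 (0.00123) and Cyp1b1 by 1.14 (2.71e-05). Snai1, Anxa8 and Pde8a rose by 2.56, 2.60 and 2.76 on induction (adjusted p = 2.41e-05, 7.97e-06 and 3.13e-08), beside 1.16, 1.06 and 0.60 in the Runx2 line, and the difference between the comparisons was not tested. Hp (0.79, adjusted p = 0.107), Ifitm1 (0.43, 0.43), Tnc (0.41, 0.176) and Ly6e (0.25, 0.232) did not pass on induction.

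Of the falls, Id2 (-0.87, adjusted p = 0.000654), Vip (-1.36, 0.000637), Rgs2 (-0.97, 0.00123), Cebpd (-1.01, 0.000637) and Pde8b (-1.04, 0.000647) were lower on induction too. Ptgfr (-0.35, adjusted p = 0.322), Phlda1 (-0.22, 0.721) and Ptx3 (-0.20, 0.505) did not pass. The hypoxia list held 9 lower and 1 higher members on induction (median -0.39) and the glycolysis list 5 lower (median -0.28). Without induced replicates 1 and 2 and uninduced replicates 1 and 2, in turn, the lower members numbered 8, 3, 8 and 4 in the hypoxia list and 4, 1, 3 and 2 in the glycolysis list. Slc2a1 fell from 10.88 and 11.18 to 10.22 and 10.29 (-0.78 ± 0.11, adjusted p = 0.00238) and Egln1 from 8.54 and 8.45 to 7.69 and 7.57 (-0.87 ± 0.10, 0.000549). In both genes the induced arrays lay below the uninduced arrays, and both calls held with any single array of that comparison left out.

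The 2 genes called in opposite directions were Id1 and Mgp, matrix Gla protein, an inhibitor of calcification. Id1 fell in the Runx2 line and rose on induction, from 7.92 and 7.66 to 8.71 and 8.65 (0.89 ± 0.12, adjusted p = 0.00171). Its uninduced arrays lay below both vector arrays and both Runx2 arrays given above, and its induced arrays still lay below both vector arrays. Mgp went from 8.48 and 8.19 in vector to 7.66 and 7.65 in the Runx2 line (-0.68 ± 0.13, adjusted p = 0.0122) and rose by 1.04 on induction (adjusted p = 0.000894), and was named after its values were seen. Its call in the Runx2 line was lost without Runx2 replicate 1 (0.0763), Runx2 replicate 2 (0.055) or vector replicate 1 (0.175). Id2 fell in both comparisons, and so did Id3 (-0.71 on induction, adjusted p = 0.0325), though the Id3 call on induction was lost without induced replicate 2 (0.309) and without uninduced replicates 1 and 2 (0.097 and 0.211).

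**Figure D5:**
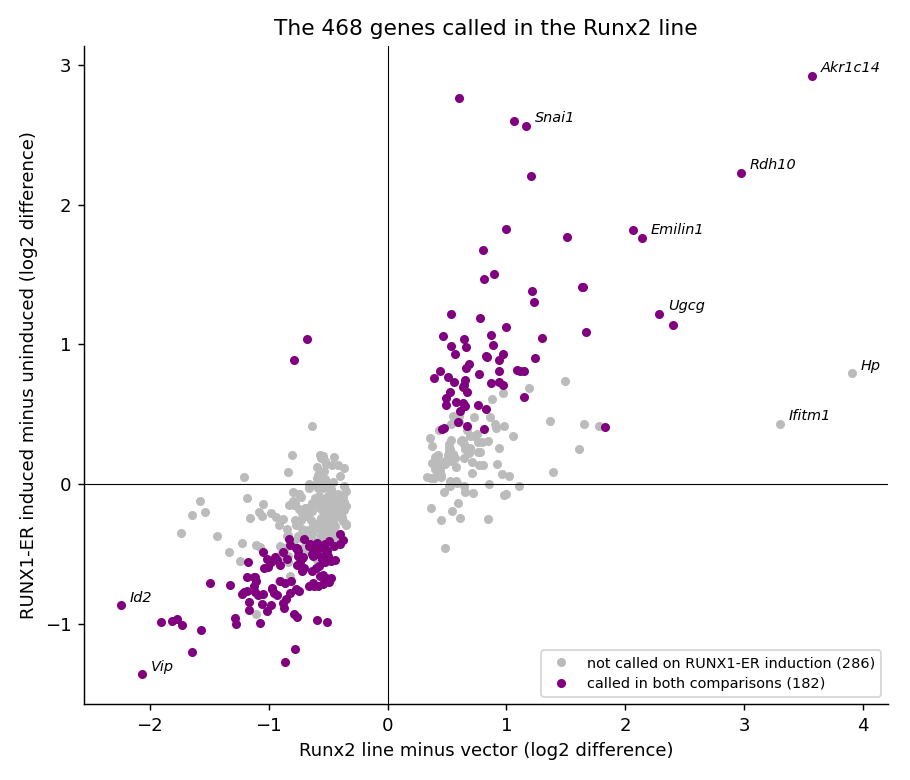
Difference on RUNX1-ER induction (vertical axis, log2) against the difference of the Runx2 line from vector (horizontal axis, log2) for the 468 genes called in the Runx2 line, with 182 that were called in both comparisons in purple and 286 that were not called on induction in grey. Of the 182, 180 lie at lower left or upper right, and Id1 and Mgp lie at upper left.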

How the data were processed

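Expression was measured on 15 Affymetrix arrays of 45101 probe sets, 1 per sample. The authors deposited log2 values made with GCOS and RMA, per the labels' protocols, with no tool version stated there. The distributions of the 15 arrays were close but not identical, with medians from 3.69 to 3.75. Probe sets were named from the platform annotation: 34958 had 1 symbol, 932 several and 9160 none, and 64 control probe sets were left out. Each of 18193 symbols was represented by its brightest probe set over all arrays. All 8 groups were fitted together with limma 3.58.1 (R 4.3.3; lmFit and eBayes, two-sided, 7 residual degrees of freedom and 5.65 prior ones, Benjamini-Hochberg over all genes, threshold 0.05). On simulated data for Runx2 against vector over 18193 genes, the fit called 26 of 67 genes changed by 0.5 log2 units, 65 of 67 by 1, 66 of 66 by 2, and 14 of 17993 unchanged genes. The simulated noise was normal and independent, with spreads drawn from the fit's own prior and without an intensity trend or array effects. It therefore checks the working of the fit and not its error rate on these arrays.

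Groups were taken from the sample titles, and array number rather than depth limits the precision. Named genes were the 15 largest called rises and 15 largest called falls, from each list up to 5 called members with the largest change and up to 3 classical members that did not pass, the 8 largest each way against Runx1 and Runx3, and the Runx genes with Cbfb. The 15 each way came from genes whose Runx2 and vector arrays do not overlap. The 8 each way came from genes whose Runx2 arrays lie outside the range of the Runx1 and Runx3 arrays. Called list members outside this rule were named after their values were seen. The members and the gene lists were chosen with earlier results of these data known, so no set test was run and the lists are described by counts and medians. Promoters came from RefSeq (GRCm38.p6). Alternatives changed the probe set rule, a filter on dim genes, an intensity trend, centring, the replicate block, the arrays fitted, the control arrays and each replicate in turn.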

Additional observations from a re-analysis of the deposited data

Results flagged for a closer look

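3 probe sets without a named gene, which the comparisons of named genes do not use, were higher in the Runx2 arrays than in vector: 1426034_a_at by 4.81, 1425389_a_at by 4.22 and 1438531_at by 1.53 on the log2 scale. The first and second are described with the introduced gene above. 1438531_at measured 4.04 and 3.83 in vector and 5.56 and 5.37 in the Runx2 arrays, and its group means were also above vector in the Runx1 (4.87), Runx3 (5.61) and human RUNX1 (5.84, 1 array) lines.

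For 7 genes the Runx2 line passed the test against vector in one direction, the Runx1 and Runx3 means lay on the other side of vector, and the direct difference of Runx2 from the mean of Runx1 and Runx3 also passed (limma, adjusted p). Sned1 differed by 1.24 (adjusted p = 0.000296), Megf10 by 0.81 (0.00845) and Ghr, the growth hormone receptor, by 0.61 (0.00804), all higher in Runx2. Igfbp4 differed by -0.96 (adjusted p = 0.000296), Phldb2 by -0.67 (0.00455), Rrp8 by -0.60 (0.0165) and Cdkn1a by -0.49 (0.0144), all lower in Runx2. In Megf10, Ghr, Rrp8 and Cdkn1a the Runx1 and Runx3 means were within 0.13 of vector, so their position on the other side of vector is small beside the Runx2 difference. Igfbp4 in Runx1 and Phldb2 in Runx3 were also only 0.07 above vector. Sned1 was below vector by more, at -0.83 in Runx1 and -0.50 in Runx3. In the direct comparison, the calls of Sned1 and Igfbp4 held with any single array left out. Without Runx2 replicate 2 Megf10, Ghr, Rrp8 and Cdkn1a were lost (adjusted p = 0.0581, 0.071, 0.103 and 0.0913), and without Runx2 replicate 1 Phldb2 and Cdkn1a (0.0762 for both). Rrp8 was also lost without Runx1 replicates 1 and 2 (0.0549 and 0.0586) and Runx3 replicate 2 (0.0576), and Cdkn1a without Runx1 replicate 2 (0.0552) and Runx3 replicate 2 (0.0514). Against vector, the calls of Megf10, Ghr and Rrp8 held without Runx2 replicate 1 and were lost with any of the other 3 arrays left out (adjusted p from 0.0681 to 0.23), and that of Phldb2 was lost with any of the 4 (0.057 to 0.27).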

How the results depend on the processing

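Of the 258 genes named by rule, none changed direction between called values in Runx2 against vector under any alternative. Genes named later were run with single arrays left out only. Of 130 that the rule named and the test called, 64 kept the call in every alternative that measured them and 66 lost it in at least one. With an intensity trend in eBayes the calls numbered 758 for Runx2 against vector, 340 against Runx1 and Runx3, and 638 on RUNX1-ER induction, in place of 468, 159 and 349. In fits on the compared arrays alone they numbered 161, 45 and 93, with fewer residual degrees of freedom. Without genes under a mean of 5 log2 units, which leaves fewer genes tested, they numbered 644, 279 and 523, and with the mean of all probe sets 425, 166 and 311. Leaving out 1 replicate gave from 207 to 482, from 58 to 158 and from 129 to 305 calls. With each array centred on its median the counts were 442, 159 and 340. With vector and 4-OHT-treated vector together as control, 688 genes were called. The labels do not say whether the replicate numbers pair the arrays. Over 21 pairs of groups, deviations of same-numbered arrays correlated at r = -0.158 (vector with Runx2) to 0.254 (uninduced RUNX1-ER with Runx1). These values do not decide whether some groups shared a batch. With the replicate block the counts were 448, 146 and 306, and 7 of 258 named genes lost the call. A block with the numbers of the Runx2 arrays exchanged, chosen after seeing the data, gave 501. Counts of list members moved by more than 1.5 times for 22 of 72 counts under the trend and 33 in the fit on 4 arrays. Of 89 called genes with another probe set, 49 had another called the same way and 0 the opposite way. Few arrays limit all of this, and a probe set near the array median cannot show a fall.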
